A study of Mus musculus with 12 samples.

Results

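This account is of the duodenum of wild-type mice given the pentapeptide IIAEK or its vehicle, measured on the 6 of 12 arrays in the series whose titles name wild-type duodenum, 3 arrays for each treatment. The mice were male, 7 weeks old at the start of dosing per the series design, and were dosed by mouth each day for 14 days. The vehicle was carboxymethylcellulose sodium salt at 5 g/L, and the IIAEK group received the peptide in that vehicle at 600 mg per kg body weight per day. All mice were fasted for 8 h before the duodenum was put into RNAlater. The source labels of the wild-type IIAEK samples give the dosing time in weeks, whereas their titles, the protocol and the design give days, and days are used here. The other 6 arrays, of Akp3-/- mice under the same treatments (3 each), entered the shared estimate of the spread and the test of whether an effect differed between genotypes. Strain, and how the knockout was made, are not given in the sources used here. The labels do not say whether RNA was pooled, and p-values measure the spread between these arrays.

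IIAEK, named by the letters of its amino acids, is a peptide first found in a digest of the milk protein beta-lactoglobulin, and the labels call it cholesterol-lowering. The duodenum is the first stretch of the small intestine, where enterocytes take up sterols, fats, peptides, sugars and iron. Cholesterol enters these cells from the lumen through the transporter NPC1L1 and is either esterified for export in chylomicrons or pumped back into the lumen by the paired half-transporters ABCG5 and ABCG8. Akp3 is the gene of the alkaline phosphatase of the mouse duodenum, which sits on the brush border and takes phosphate off nucleotides and bacterial endotoxin in the lumen. The comparison asks which genes differ with the peptide where Akp3 is intact.

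All levels are log2 processed intensities minus the 75th percentile of their array, so a level of 0 is that percentile, and fold changes are log2, IIAEK minus vehicle. After a filter on dim probes, 26107 features were tested, of which 15583 were named genes. On each array 55.9% to 64.0% of all probes were well above background, no spot was saturated, and correlations between any pair of wild-type arrays ran from 0.969 to 0.989. Akp3 separated the genotypes, with levels from 1.05 to 2.72 in wild type and from -4.90 to -3.80 in the knockout. Vehicle arrays 1 and 2 and IIAEK arrays 1 and 2 were on 1 slide, and vehicle 3 and IIAEK 3 were on the other.

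The arrays carried a clear duodenal signature but differed in genes of adjoining tissues. The 10 markers of duodenal epithelium, among them Cdx2, Sis, Lct and Alpi, averaged 5.15 to 5.37 under vehicle and 5.15 to 5.57 under IIAEK. Genes of gastric-type mucous cells (10, among them Gkn2, Tff1, Tff2 and Muc5ac) averaged 3.71, 3.56 and 3.85 on the vehicle arrays and -1.26, -1.68 and 5.04 on the IIAEK arrays, so that IIAEK 1 and 2 were low and IIAEK 3 was the highest of all. Genes of the pancreas (33 genes, such as the digestive enzyme genes Prss2, Cpb1 and Amy2b) averaged 1.77, 7.54 and 7.64 on the vehicle arrays and 7.01, 7.47 and 7.98 on the IIAEK arrays, so that vehicle 1 stood apart. Erythroid genes (4, such as Hba-a1 and Alas2) averaged 4.61 on vehicle 3 and 1.64 to 2.91 elsewhere. B-cell follicle genes are described below. These are bulk samples, in which fewer cells of a type and less RNA per cell cannot be told apart. The part of such tissue content in the results was not tested beyond the values given beside them.

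**Figure D1:**
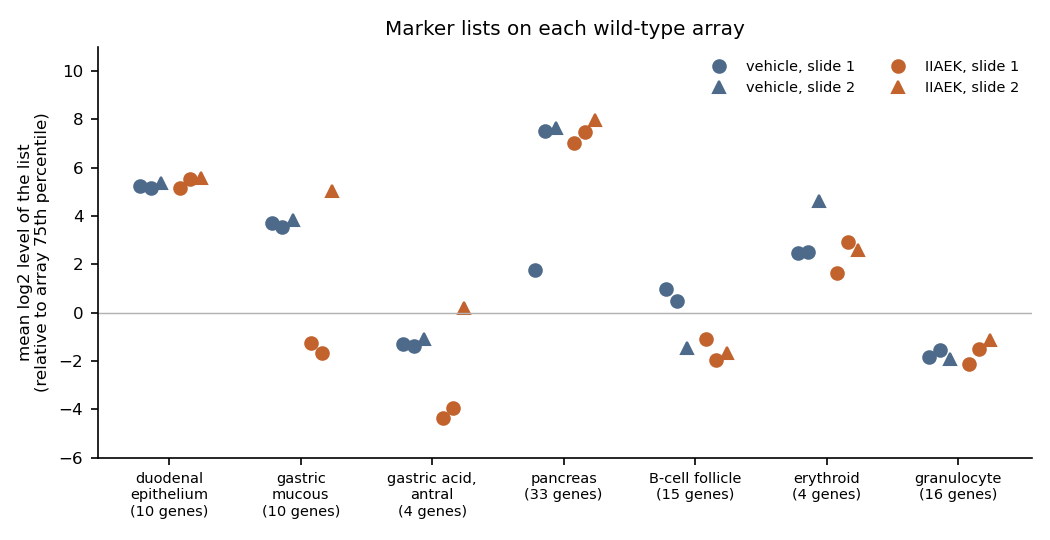
Mean log2 level (relative to the array's 75th percentile) of 7 marker lists on each wild-type array; each point is 1 array, blue for vehicle and orange for IIAEK, circles for slide 1 and triangles for slide 2. IIAEK 1 and 2 are low in both stomach lists, vehicle 1 is low in pancreatic genes at 1.77, and vehicle 1 and 2 are high in B-cell follicle genes.

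No gene passed the test of IIAEK against vehicle in wild-type duodenum. Of 26107 features, 0 (0%) had an adjusted p under 0.05 by limma, and the smallest adjusted p was 0.999. At an unadjusted p under 0.05 there were 444 features higher under IIAEK (1.7% of those tested) and 375 lower (1.44%), together 3.137%. The 3 IIAEK arrays lay all above the 3 vehicle arrays for 1458 features (5.58%) and all below them for 964 (3.69%). The median log2 fold change over all features was 0.03 with 56.3% above 0, and the median standard error (SE) was 0.24. A difference of more than 1 on the log2 scale was seen for 180 features upward and 270 downward. The fold changes below are therefore values with their errors, none of which passed the adjustment over all features.

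Fewer arrays gave calls that the full comparison did not. Within slide 1, where 2 IIAEK arrays were set against 2 vehicle arrays, limma called 257 features, 75 higher and 182 lower. Far down among the lower ones were Mucl3 at -7.89 and the stomach genes Gkn2 (a gastrokine) at -7.66, Tff1 (a trefoil peptide) at -6.55 and Pgc (a pepsinogen) at -5.37. On slide 2 these genes had differences of 1.29, 1.62, 1.39 and 0.02. Genes of the major urinary proteins, near-identical copies whose probes may share signal, lay among them, with Mup21 at -6.87, Mup18 at -6.66 and Mup1 at -6.58, and with 0.83, 0.96 and 1.14 on slide 2. In all, 51 of the 257 features had the same sign on slide 2. Of the 257, 11 belonged to the 2 stomach lists and 6 to the B-cell list. Without vehicle 3, 17 features were called and all were lower, among them the B-cell genes Cr2 (-4.31), Cd79b (-2.34) and Tnfrsf13c (-2.85) and the follicle chemokine gene Cxcl13 (-2.68). Over all features, 52.5% had the same sign on both slides.

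**Figure D2:**
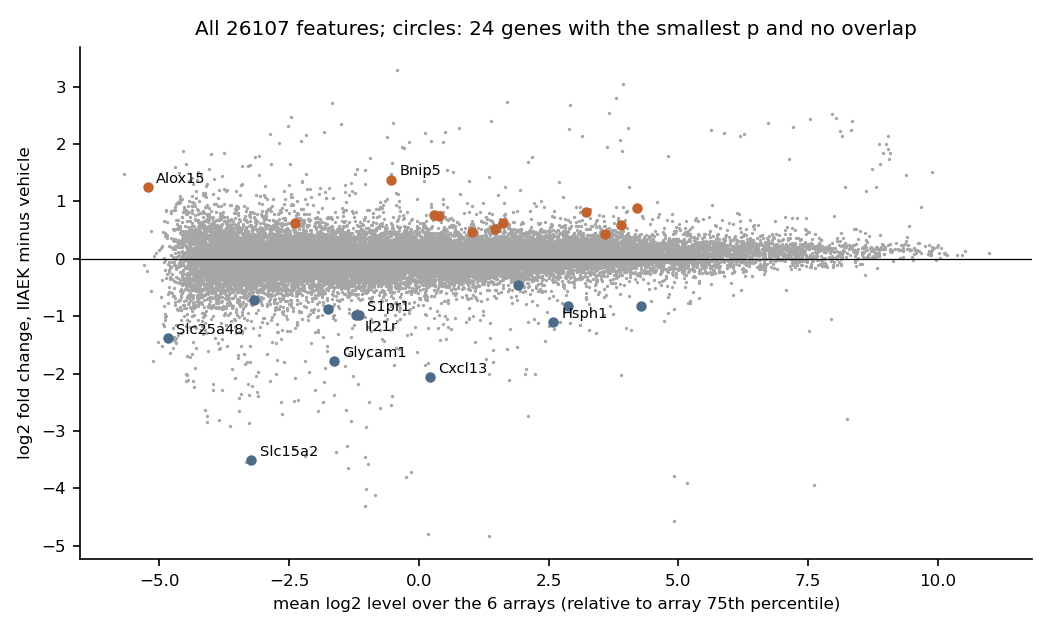
Log2 fold change (IIAEK minus vehicle) of each of the 26107 features against its mean log2 level over the 6 wild-type arrays; grey points are all features, and circles mark the 12 genes in each direction with the smallest unadjusted p among named genes whose groups did not overlap (orange higher, blue lower). Of the circled genes Slc15a2 lies lowest at -3.50 and Bnip5 highest at 1.38, and many grey points lie farther from 0 than most circles.

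The alkaline phosphatase genes did not differ beyond the spread between arrays. Akp3 had levels of 2.27, 2.04 and 1.70 under vehicle and of 1.29, 1.05 and 2.72 under IIAEK. The IIAEK arrays therefore lay on both sides of the vehicle arrays, and the fold change was -0.31 (SE 0.37, 95% interval -1.12 to 0.49), with -0.07 for a second probe. Its sign turned between slides, with -0.98 within slide 1 and 1.02 within slide 2. Alppl2, which encodes an embryonic-type phosphatase and neighbours Akp3, was at 0.78, 0.56 and 0.72 under vehicle and -0.08, -0.47 and 1.56 under IIAEK (-0.35, SE 0.45). For both genes the arrays IIAEK 1 and 2 were low and IIAEK 3 was high, the same arrays that were low and high in the stomach lists. Alpi, whose product is the more widely spread gut phosphatase, was at 0.05 (SE 0.26), a sign that turned with quantile normalization (-0.11). Alpl, the tissue-nonspecific form, was at -0.15 (SE 0.25).

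Genes that move sterols out of the enterocyte had higher values under IIAEK, while the uptake transporter gene did not stand apart. Abcg8 had levels of 4.42, 4.33 and 3.68 under vehicle and of 5.17, 4.53 and 4.58 under IIAEK. All 3 IIAEK arrays lay above all 3 vehicle arrays, with a fold change of 0.62 (SE 0.23, 95% interval 0.11 to 1.12, unadjusted p = 0.0206, limma adjusted p = 0.999). Abcg5, its partner, had levels of 7.59, 7.57 and 7.11 under vehicle and of 8.03, 8.04 and 7.51 under IIAEK (0.44, SE 0.21, 95% interval -0.03 to 0.91). The groups overlapped for Abcg5, because IIAEK 3 lay below vehicle 1 and 2, but within each slide its IIAEK arrays were higher, by 0.46 on slide 1 and 0.40 on slide 2. For Abcg8 the slide values were 0.47 and 0.91. Without vehicle 3 the fold changes were 0.38 for Abcg8 and 0.29 for Abcg5, and Abcg5 was at 0.25 with quantile normalization.

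Soat2, the enzyme gene that esterifies cholesterol for chylomicrons, had levels of 3.02, 2.99 and 3.07 under vehicle and of 3.65, 3.90 and 3.25 under IIAEK. Those groups did not overlap (0.57, SE 0.25, unadjusted p = 0.0458 by limma), and the value was 0.76 within slide 1 and 0.18 within slide 2. Npc1l1, the target of ezetimibe, was at 4.153, 3.997 and 4.140 under vehicle and 4.501, 4.100 and 4.142 under IIAEK. Its groups overlapped, with a fold change of 0.15 (SE 0.15, 95% interval -0.19 to 0.49). Abca1, which passes cholesterol to apolipoprotein A-I at the basolateral side, was at 0.31 (SE 0.24), with 0.55 within slide 1 and -0.19 within slide 2. Of the 12 sterol uptake and efflux genes tested, 10 were above 0, 2 had an unadjusted p under 0.05 (1.7% of all features) and 2 did not overlap (5.58%). Their median was 0.16, against 0.03 for all features, and 0.06 with quantile normalization. Cholesterol synthesis genes (23) had a median of -0.05, with 11 above 0 and 12 below. For 2 of them every IIAEK array lay above every vehicle array, as for 5.58% of all features. These were Sc5d (0.30, unadjusted p = 0.102 by limma) and Ebp (0.25, unadjusted p = 0.164 by limma), which encode late enzymes of the pathway.

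Abcg5 and Abcg8 lie head to head, and the stretch between their start sites is shown because both genes had higher values under IIAEK. It covers chr17:84683012-84683120 in the RefSeq tables of build GRCm38.p6 and is 109 bases long, read on the strand of Abcg8. Capitals mark GATAA on either strand, the core letters bound by GATA factors.
Abcg5-Abcg8: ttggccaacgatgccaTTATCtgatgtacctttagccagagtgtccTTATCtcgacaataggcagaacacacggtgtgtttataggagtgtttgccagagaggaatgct
The letters occur 2 times. Of the 27025 genes with a promoter window in these tables, 10.9% hold them at least 1 time within 109 bases before a start. The share that holds them 2 times was not counted. Gata6, which encodes a GATA factor of the gut epithelium, had levels of 3.04, 2.90 and 3.12 under vehicle and of 3.47, 3.38 and 3.21 under IIAEK (0.33, SE 0.13, unadjusted p = 0.0243 by limma), with no overlap. On slide 2 its levels were close, at 3.12 and 3.21. Of 16 gut regional identity genes, 1 was higher at an unadjusted p under 0.05 by limma (1.7% of all features). For 2 of them every IIAEK array lay above (5.58%). Other GATA factor genes are not given here, and a link from Gata6 to Abcg5 and Abcg8 was not tested. The letters are a description of the sequence and not a measured site.

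Heat shock chaperone genes were lower under IIAEK on both slides. These genes encode proteins that fold or refold other proteins, and many are induced through heat shock factor 1. Of 16 tested, 15 were below 0 and 6 were lower at an unadjusted p under 0.05 by limma (1.44% of all features). For 7, every IIAEK array lay below every vehicle array, as for 3.69% of all features. The median was -0.32, with -0.24 within slide 1 and -0.54 within slide 2. Hsph1, an HSP110-type nucleotide exchange factor for HSP70, had levels of 2.52, 3.19 and 3.72 under vehicle and of 2.24, 1.70 and 2.17 under IIAEK. Its groups did not overlap, and the fold change was -1.11 (SE 0.28, 95% interval -1.72 to -0.50, unadjusted p = 0.00208, limma adjusted p = 0.999), with -1.12 for a second probe.

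The inducible HSP70 genes spread over a wide range under vehicle. Hspa1b had levels of -1.06, 0.67 and 1.74 under vehicle and of -1.38, -1.89 and -0.94 under IIAEK (-1.85, SE 0.57). Hspa1a had levels of -0.99, 0.51 and 1.70 under vehicle and of -1.08, -1.62 and -0.79 under IIAEK (-1.57, SE 0.55). For both genes vehicle 1 lay within the IIAEK range and vehicle 2 and 3 were well above it. Hspa1a and Hspa1b are near-identical copies, so their probes may share signal and the pair is not 2 separate observations. The constitutive HSP70 gene Hspa8 had levels of 5.97, 6.18 and 6.50 under vehicle and of 5.80, 5.71 and 5.88 under IIAEK (-0.42, SE 0.15), with no overlap. The HSP40 gene Dnajb1 (-0.31, SE 0.13) and the HSP90 activator gene Ahsa1 (-0.31, SE 0.13) did not overlap either, and Hspe1, the mitochondrial co-chaperonin gene, was the 1 member above 0 (0.09, SE 0.32). In the knockout the same list had a median of -0.02.

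**Figure D3:**
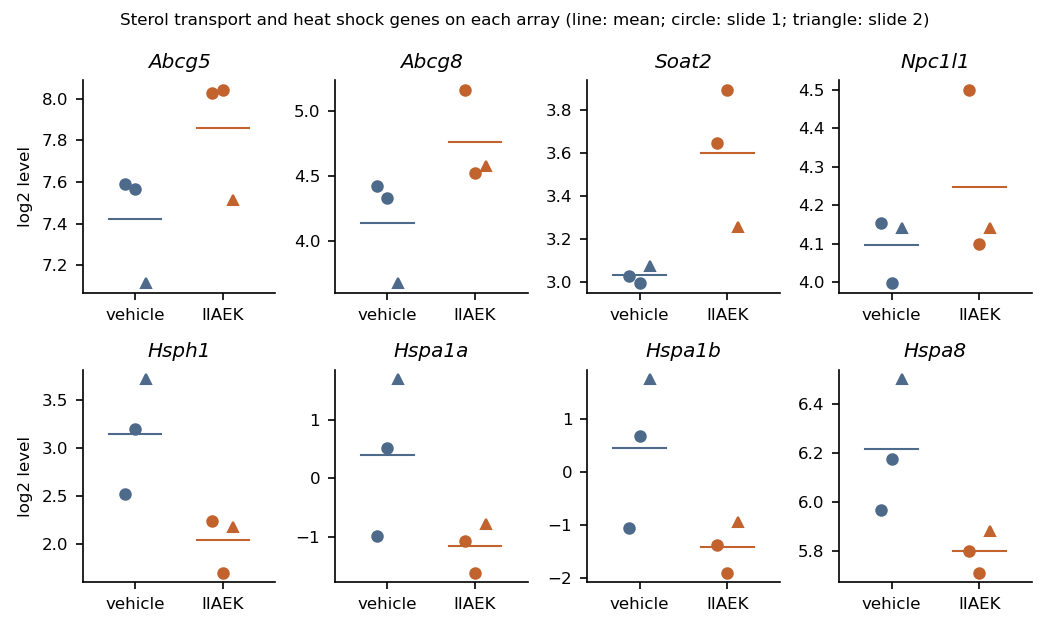
Log2 level of 4 sterol genes (top) and 4 heat shock genes (bottom) on each wild-type array; points are arrays (circle slide 1, triangle slide 2), lines are group means, and each panel has its own vertical range. Abcg8 and Soat2 are higher on every IIAEK array than on any vehicle array, Npc1l1 overlaps, and Hsph1 and Hspa8 are lower on every IIAEK array, while vehicle 1 overlaps with IIAEK for Hspa1a and Hspa1b.

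The promoters of these 3 heat shock genes are shown with the letters that heat shock factor recognises, inverted GAA units spaced by 2 bases. The motifs searched were GAANNTTC and TTCNNGAA, each its own reverse complement, in the 250 bases before a start, and capitals mark them. Each sequence runs in the gene's direction from 10 bases before the first match to the base before the start, with RefSeq positions of build GRCm38.p6. Where a gene had more than 1 window, as Hsph1 with 2, the window with the most matches is shown. Hsph1 covers chr5:149636337-149636379, Hspa1a chr17:34972157-34972270 and Hspa1b chr17:34959239-34959352, all on the minus strand.
Hsph1: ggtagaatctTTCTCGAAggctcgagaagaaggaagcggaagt
Hspa1a: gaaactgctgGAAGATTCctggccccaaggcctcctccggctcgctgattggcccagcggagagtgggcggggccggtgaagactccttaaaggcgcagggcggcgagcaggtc
Hspa1b: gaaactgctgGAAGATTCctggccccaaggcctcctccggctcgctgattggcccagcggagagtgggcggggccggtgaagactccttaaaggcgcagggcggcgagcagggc
Of the 13 listed heat shock genes with a window, 7 (53.8%) held at least 1 match, against 3932 of 27025 genes (14.5%) in all. A run of 3 such units was held by 2 of them (15.4%), against 139 genes (0.514%) in all. These were Hspd1 and Hspe1, the latter the member above 0, and none of the 3 genes shown held such a run. Whether Hspd1 and Hspe1 hold the same stretch of bases was not checked. The near-identical promoters of Hspa1a and Hspa1b are both among the 7, so these shares do not count separate promoters only. Dnajb1 and Ahsa1 held no match.

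Of 17 glucocorticoid-responsive genes, 14 were below 0 and 3 had every IIAEK array below every vehicle array, against 3.69% of all features. Their median was -0.35, with -0.20 without IIAEK 2 and -0.59 without IIAEK 3. Tsc22d3, which encodes the glucocorticoid-induced leucine zipper, had levels of 4.59, 4.31 and 4.25 under vehicle and of 3.95, 3.45 and 3.80 under IIAEK (-0.65, SE 0.21). Ddit4, a stress-induced mTOR inhibitor gene, had levels of 4.15, 4.10 and 3.92 under vehicle and of 3.73, 2.29 and 3.21 under IIAEK (-0.98, SE 0.35). Neither gene overlapped between groups. Fkbp5, a chaperone gene of the glucocorticoid receptor, was at -0.63 (SE 0.29) and the kinase gene Sgk1 at -1.08. The list median was -0.57 within slide 1 and 0.02 within slide 2, so the list as a whole was low on slide 1, although Tsc22d3 (-0.45) and Ddit4 (-0.71) were lower on slide 2 too.

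Of 34 cell cycle genes, 31 were below 0 and 7 below all vehicle arrays, as were 3.69% of all features. Their median was -0.21, with values of -0.25 and -0.18 within the slides. Rrm1, a ribonucleotide reductase subunit gene, had levels of 2.02, 1.84 and 1.72 under vehicle and of 1.46, 1.21 and 1.54 under IIAEK (-0.46, SE 0.15). Tpx2, a spindle assembly gene (-0.67, SE 0.31), and Ccne1, the cyclin E1 gene (-0.58, SE 0.30), did not overlap between groups. The median was -0.14 without IIAEK 2, -0.08 with the means of the stomach and pancreas lists in the model and -0.08 with the mean of the B-cell list. The growth regulator gene Myc had levels of -0.29, -0.51 and -0.24 under vehicle and of -0.80, -1.56 and -0.88 under IIAEK (-0.73, SE 0.25). The quiescence and endothelial factor gene Klf2 was at -0.97 (SE 0.33), also without overlap. Both belong to the immediate early list, of which 9 genes were above 0 and 9 below, with a median of -0.0019 and of 0.53 within slide 2. Intestinal stem cell genes had a median of -0.07.

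Genes of B-cell follicles and lymphoid vessels had the lowest median among the lists of immune cells, and it followed vehicle 1 and 2. Such follicles occur at intervals along the gut wall, so a piece of intestine may hold few or many. The 15 tested genes averaged 0.98, 0.49 and -1.48 on the vehicle arrays and -1.09, -1.95 and -1.66 on the IIAEK arrays. Vehicle 3 thus lay within the IIAEK range. All 15 were below 0 with a median of -1.40, which was -2.09 within slide 1 and -0.22 within slide 2; 10 had an unadjusted p under 0.05 (1.44% of all features) and 6 did not overlap (3.69%). Without vehicle 3 the median was -2.15. Cxcl13, the chemokine gene that draws B cells into follicles, had levels of 2.09, 1.64 and 0.02 under vehicle and of -0.62, -1.14 and -0.70 under IIAEK (-2.07, SE 0.45). Glycam1, a mucin-like gene of high endothelial venules, had levels of 0.15, -0.32 and -2.08 under vehicle and of -2.41, -2.75 and -2.44 under IIAEK (-1.78, SE 0.44).

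The lymphoid chemokine gene Ccl21a was more even between arrays, with 3.35, 3.39 and 3.13 under vehicle and 2.51, 2.18 and 2.69 under IIAEK (-0.83, SE 0.21). Gm1987, a near-identical copy of Ccl21-type genes whose probe may read the same RNA, was at -0.82 (SE 0.22). The B-cell genes Ms4a1 (-3.36) and Cr2 (-2.63) overlapped between groups. S1pr1, the receptor gene for lymphocyte egress, had levels of -0.29, -0.69 and -1.03 under vehicle and of -1.56, -1.95 and -1.43 under IIAEK (-0.98, SE 0.20; -0.61 with normexp background correction). Il21r, a cytokine receptor gene of lymphocytes, had levels of -0.17, -0.75 and -1.26 under vehicle and of -1.56, -1.85 and -1.69 under IIAEK (-0.97, SE 0.25). For both genes the vehicle arrays ranked as they did in the B-cell list, with vehicle 1 highest and vehicle 3 lowest. T-cell and intraepithelial lymphocyte genes had a median of -0.03 over 29 genes, and plasma cell genes one of 0.13 over 10.

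The 12 named genes with the smallest p among those higher under IIAEK were chosen by that p, so their values are a description. Bbc3, which encodes the pro-apoptotic BH3 protein PUMA, had levels of 0.12, 0.09 and -0.17 under vehicle and of 0.96, 0.74 and 0.59 under IIAEK. Every IIAEK array was well clear of the vehicle arrays, with a fold change of 0.75 (SE 0.15, 95% interval 0.41 to 1.09, unadjusted p = 4.61e-04, limma adjusted p = 0.999) and values of 0.75 and 0.76 within the slides. Bnip5, a gene named for an interaction with BCL2, had levels of -0.80, -0.90 and -1.98 under vehicle and of -0.03, 0.36 and 0.14 under IIAEK (1.38, SE 0.29). Rnf186, which encodes a gut-expressed ubiquitin ligase, had levels of 4.05, 3.57 and 3.68 under vehicle and of 4.38, 4.70 and 4.89 under IIAEK (0.89, SE 0.23).

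Grb7, a gene for an adaptor of receptor tyrosine kinases, had levels of 3.65, 3.56 and 3.58 under vehicle and of 4.38, 4.13 and 4.06 under IIAEK (0.60, SE 0.13). Its vehicle arrays lay within a narrow range, below every IIAEK array. Efna1, the ephrin-A1 gene, had levels of 2.83, 2.86 and 2.76 under vehicle and of 4.05, 3.47 and 3.39 under IIAEK (0.82, SE 0.20). Sema6a, a semaphorin gene, was at 0.52 (SE 0.14), but a second probe gave 0.17. The matrix gene Efemp1 was at 0.62 (SE 0.16), with 0.60 for a second probe. Asb13 (0.47, with 0.38 for a second probe), which encodes a substrate adaptor of ubiquitin ligases, Nkiras2 (0.43, with 0.28 for a second probe), which encodes an inhibitor of NF-kappaB activation, and 4930402H24Rik (0.62, with 0.18 for a second probe and 0.30 with normexp background correction) complete this group together with the genes Ear2 and Alox15.

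Ear2 and Alox15 belong to the list of granulocyte and mast cell genes. Ear2, an eosinophil-associated ribonuclease gene with close copies, had levels of -0.14, 0.18 and -0.29 under vehicle and of 0.72, 0.65 and 0.65 under IIAEK (0.76, SE 0.20). The eosinophil granule gene Prg2 had levels of 0.06, 0.45 and 0.24 under vehicle and of 0.48, 0.96 and 0.68 under IIAEK (0.46, SE 0.20), again without overlap. Alox15, a lipoxygenase gene, was not well above background on any vehicle array and was so on 2 of 3 IIAEK arrays, which gives at least 1.14-fold higher under IIAEK. The whole list of 16 had 12 above 0 and a median of 0.36, with 0.18 within slide 1, 0.99 within slide 2, 0.19 with normexp background correction and 0.22 without IIAEK 3. The neutrophil gene S100a9 (-2.18) and the macrophage chitinase-like gene Chil3 (-1.30) were below 0.

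The 12 with the smallest p among those lower under IIAEK were chosen in the same way. Slc5a3, the myo-inositol transporter gene, had levels of -1.26, -1.33 and -1.35 under vehicle and of -1.92, -2.41 and -2.22 under IIAEK. Its vehicle arrays were nearly equal and all above the IIAEK arrays, with a fold change of -0.87 (SE 0.18, 95% interval -1.26 to -0.48, unadjusted p = 4.56e-04, limma adjusted p = 0.999), the same within each slide at -0.87, and with -0.63 for a second probe and -0.51 with normexp background correction. Slc15a2, the gene of the peptide transporter PEPT2, had levels of -0.40, -1.89 and -2.14 under vehicle and of -5.49, -4.64 and -4.80 under IIAEK (-3.50, SE 0.87). All 3 vehicle arrays but 1 of 3 IIAEK arrays read this probe well above background, so the size of this difference is poorly set, and it was -1.44 with normexp background correction and -1.19 with a second probe.

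Slc25a48, a mitochondrial carrier gene, was not well above background on any IIAEK array, which gives at least 1.43-fold lower there on the processed intensities. Its fold change was -1.37 on that scale but -0.01 with normexp background correction, so the difference depends on how background is taken off. Uspl1, a SUMO protease gene, had levels of 2.16, 2.14 and 2.13 under vehicle and of 1.72, 1.66 and 1.70 under IIAEK (-0.45, SE 0.10), a small difference between narrow groups. Obi1, a gene for a ubiquitin ligase of the replication origin complex, was at -0.72 (SE 0.18), but at -0.22 with normexp background correction, and a dim second probe that did not pass the filter gave 0.23. The remaining members of this group are Hsph1, S1pr1, Il21r, Cxcl13, Glycam1, Ccl21a and Gm1987, given above.

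**Figure D4:**
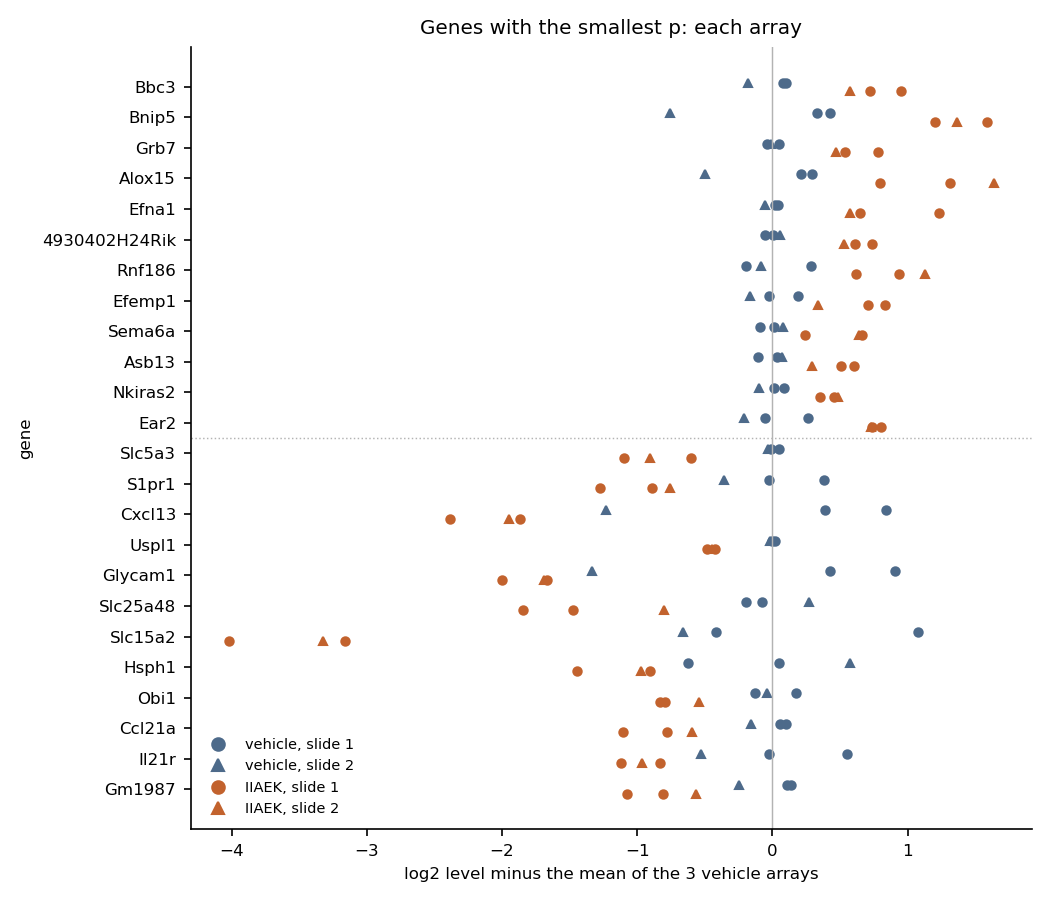
Log2 level minus the mean of the 3 vehicle arrays for the 12 genes with the smallest unadjusted p in each direction; each point is 1 wild-type array, blue vehicle and orange IIAEK, circles slide 1 and triangles slide 2. The groups do not overlap because the genes were chosen so, and the vehicle points of Cxcl13, Glycam1, Bnip5 and Slc15a2 spread far more widely than those of Uspl1, Grb7 and Slc5a3.

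Peptide and amino acid transporter genes had a median of 0.14 over 14 genes, with 11 above 0. Slc15a1, the gene of the intestinal peptide transporter PEPT1, was at -0.49, -0.53 and -1.30 under vehicle and -0.37, -0.10 and -1.48 under IIAEK (0.13, SE 0.59). Its arrays differed by slide far more than by treatment. Slc6a20a, which encodes an imino acid transporter of the brush border, had levels of 2.26, 2.35 and 2.81 under vehicle and of 3.18, 3.23 and 3.07 under IIAEK (0.69, SE 0.19, unadjusted p = 0.00403 by limma), with no overlap and 0.91 and 0.26 within the slides. Slc6a19, the main neutral amino acid transporter gene, was at 0.39 (SE 0.25) and Slc1a5, a glutamine transporter gene, at -0.59 (SE 0.32).

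Of 29 genes of drug metabolism and the NRF2 response, 28 were above 0 and 4 above all vehicle arrays, as were 5.58% of all features, and the median was 0.49. Cyp2j6, a cytochrome P450 gene of the intestine, had levels of 1.37, 1.34 and 1.78 under vehicle and of 2.12, 2.57 and 1.71 under IIAEK (0.64, SE 0.27). The carboxylesterase gene Ces2c was at 0.51 (SE 0.22), the glucuronosyltransferase gene Ugt2b5 at 0.91 (SE 0.47) and the quinone reductase gene Nqo1 at 0.39 (SE 0.21). The list was high on IIAEK 1 and 2, the arrays low in stomach genes, and its median was 0.80 within slide 1 and -0.07 within slide 2. With the means of the stomach and pancreas lists in the model it was 0.16, and without IIAEK 2 it was 0.26.

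Nuclear genes of oxidative phosphorylation were all above 0 (39 of 39, against 56.3% of all features), by little, with 10 above all vehicle arrays (5.58% of all features). Their median was 0.23, with 0.30 and 0.10 within the slides, 0.11 without IIAEK 2 and 0.07 with quantile normalization. Cox4i1, a cytochrome oxidase subunit gene, had levels of 7.16, 7.23 and 7.55 under vehicle and of 7.35, 7.65 and 7.69 under IIAEK (0.25, SE 0.16). Ndufa8, a complex I subunit gene, was at 0.23 (SE 0.13), without overlap.

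Of 38 genes that respond to interferon, 32 were above 0 and 8 above all vehicle arrays (5.58% of all features). Their median was 0.18, with 0.20 and 0.13 within the slides. Cxcl9, which encodes a T-cell chemokine induced by interferon gamma, had levels of -0.67, -0.69 and -0.96 under vehicle and of 0.05, 0.21 and -0.08 under IIAEK (0.83, SE 0.27). Irf1, an interferon-induced transcription factor gene, had levels of 4.58, 4.68 and 4.76 under vehicle and of 5.27, 5.29 and 4.93 under IIAEK (0.48, SE 0.17). Ifi44 was at 0.67 (SE 0.25), also without overlap. The antiviral genes Oas3 (-0.22) and Rsad2 (-0.12) were below 0. With the mean of the B-cell list in the model, added after the data were seen, the median of the interferon list was 7.00e-04. It was 0.09 without IIAEK 3 and 0.05 with the means of the stomach and pancreas lists.

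The other functions of the enterocyte showed small medians whose sign often turned between slides. Chylomicron and fat absorption genes had a median of 0.16 (23 genes, 21 above 0), with 0.38 within slide 1 and -0.28 within slide 2. Their member Apoa4, an apolipoprotein gene, was at 0.29 (SE 0.19). Genes of PPAR-alpha and fatty acid oxidation were at 0.09 (0.38 and -0.43 within the slides), brush border enzymes at 0.23 (0.38 and -0.39) and sugar genes at 0.16 (0.33 and -0.15). Ehhadh, a peroxisomal oxidation gene, had levels of 3.23, 3.31 and 3.56 under vehicle and of 3.69, 4.06 and 3.59 under IIAEK (0.41, SE 0.17), without overlap. Scd1, the fatty acid desaturase gene, had levels of 1.26, 1.01 and 0.96 under vehicle and of 1.80, 1.77 and 1.38 under IIAEK (0.57, SE 0.26), also without overlap and with 0.64 and 0.42 within the slides.

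Of 15 tight junction genes, 12 were above 0 and 4 above all vehicle arrays (5.58% of all features). Their median was 0.15, with 0.19 and 0.18 within the slides, 0.07 with quantile normalization and 0.05 with the mean of each gene's probes. Cldn3, a sealing claudin gene, had levels of 4.61, 4.46 and 4.70 under vehicle and of 4.95, 4.80 and 4.87 under IIAEK (0.28, SE 0.13). Ocln (0.31, SE 0.16) and Cldn7 (0.24, SE 0.13) did not overlap either. Cldn2, the gene of a claudin that forms a cation pore, had levels of 3.03, 3.27 and 3.34 under vehicle and of 1.74, 1.39 and 3.23 under IIAEK (-1.09, SE 0.46). The low arrays for Cldn2 were IIAEK 1 and 2, those that were also low in stomach genes. Goblet cell genes had a median of -0.01, yet Agr2 (-1.26) and Spdef (-1.29), which act in mucus secretion, were low on those arrays too, with 0.39 and -0.09 within slide 2.

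**Figure D5:**
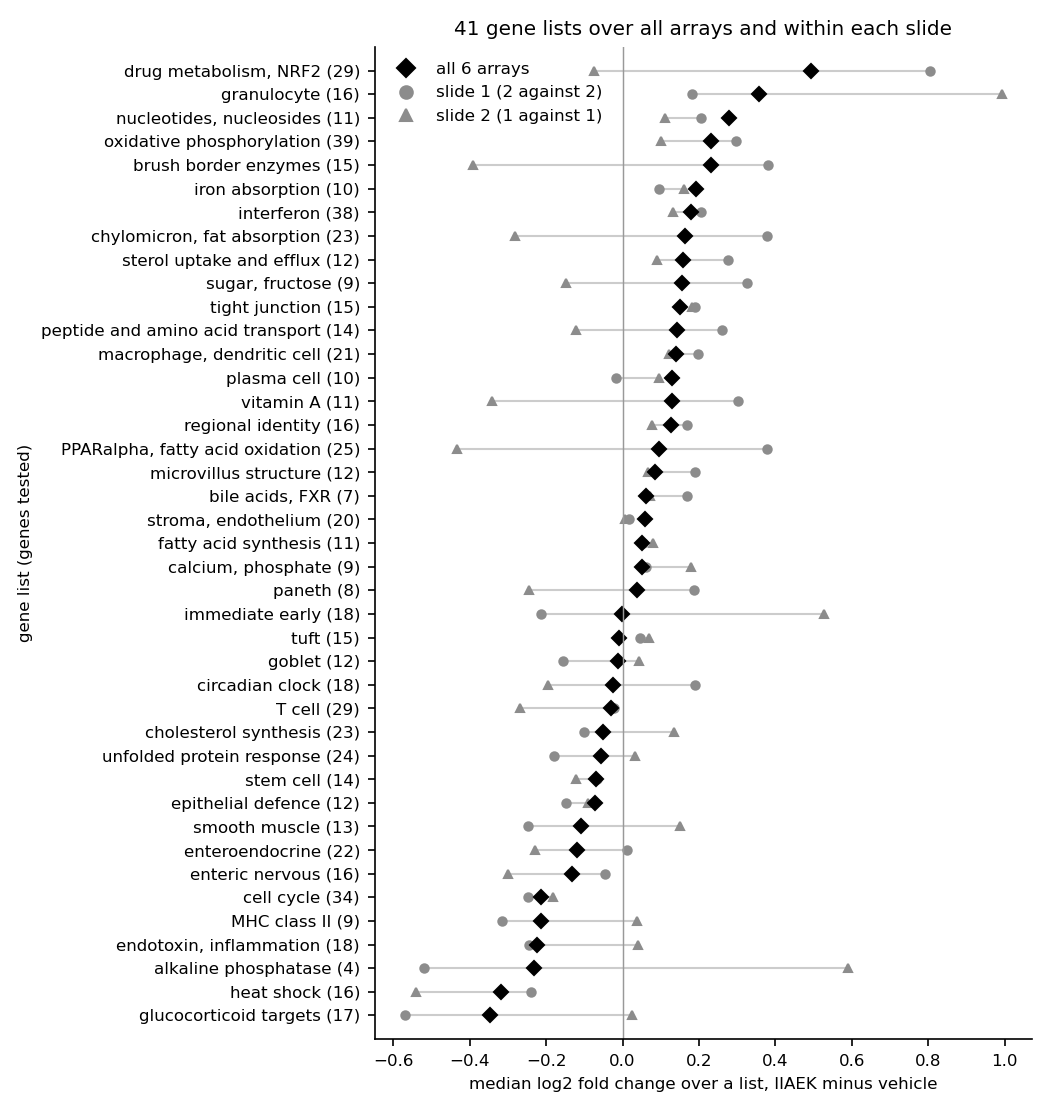
Median log2 fold change (IIAEK minus vehicle) of each gene list over all 6 wild-type arrays (diamonds), within slide 1 (circles) and within slide 2 (triangles), with the number of genes tested in brackets; the stomach, pancreas, B-cell, red cell, fat tissue, duodenal check, renin-angiotensin and ribosome biogenesis lists are not drawn. Drug metabolism and glucocorticoid lists differ widely between slides, while cell cycle, interferon and tight junction lists lie close together on both.

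Whether an effect differed from that in the Akp3 knockout was asked with the interaction of genotype and treatment. Of the 26107 features 0 (0%) had an adjusted p under 0.05 by limma (smallest adjusted p = 1), and 398 had an unadjusted p under 0.05 (1.524%). S1pr1 was at -0.98 in wild type and 0.16 in the knockout, a difference of -1.14 (SE 0.29). Cxcl13 differed by -2.25 (SE 0.63), Bbc3 by 0.71 (SE 0.22), Rnf186 by 1.02 (SE 0.33) and Hsph1 by -1.10 (SE 0.39), none past the adjustment. Abcg8 was at 0.13 and Abcg5 at -0.07 in the knockout, and their differences between genotypes were 0.49 (SE 0.32) and 0.51 (SE 0.30). Knockout levels under vehicle were -1.74, -1.58 and -1.82 for S1pr1, 4.26, 4.89 and 4.51 for Rnf186 and 2.10, 2.16 and 2.39 for Hsph1. On average these, and those of Cxcl13 (-0.40, 0.08 and -0.99), lay nearer wild-type IIAEK than wild-type vehicle levels. Those of Bbc3 (0.06, 0.28 and 0.47), Abcg5 and Abcg8 lay nearer wild-type vehicle. Of the 1458 features whose wild-type IIAEK arrays all lay above vehicle, 42 (2.88%) did so in the knockout as well, against 1.98% of all features there. Of the 964 that lay below, 88 (9.13%) lay below in the knockout, against 2.7% of all features.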

How the data were processed

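RNA was labelled with Cy3 and hybridised to 12 single-colour Agilent arrays, 3 for each of 4 groups. The deposited scanner files were written by Feature Extraction 10.7.3.1, per the file headers, and give each spot's processed intensity after background subtraction, beside its raw signal and local background. A value table that the authors deposited holds log2 values of unstated making. On every array it correlated at 0.9999957 or more with log2 processed intensity from which the 75th percentile of the array and then the median of the probe were taken, so its scale and direction are known. Its column medians were -0.07, -0.08 and 0.13 for the vehicle arrays and -0.06, 0.04 and 0.07 for the IIAEK arrays. Control spots and outlier spots were left out, spots of a probe were averaged as log2, and the 75th percentile of each array was subtracted. Probe accessions were matched to RefSeq genes of GRCm38.p6, naming 32978 of 56583 probes. The headers give an older build, so coordinates come only from the RefSeq promoter table. Probes were kept where some group had all 3 of its arrays well above background, and the probe with the highest mean stood for its gene.

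limma 3.58.1 (R 4.3.3) fitted 1 mean per group to all 12 arrays with an intensity-trended eBayes. Tests were two-sided, with Benjamini-Hochberg adjustment over 26107 features and a threshold of 0.05. The fit was tested on simulated data. Precision is limited by having 3 arrays per group. Where no array of a group was above background, the fold is a lower bound against the dimmest probe that still passed as well above background on each array. Named genes were 9 alkaline phosphatase, sterol and peptide transport genes, the 12 in each direction with the smallest p among non-overlapping groups, and up to 4 genes of each list with the smallest p. Other list members are named as examples chosen after their values were seen. The genes and the 49 lists were chosen with earlier results of these data known. The labels number replicates 1 to 3 in both groups. Deviations of same-numbered arrays from their group means correlated at 0.36, 0.16 and 0.43. On slide 1 the unlike-numbered arrays correlated at 0.17 (vehicle 1 and IIAEK 2) and -0.08 (vehicle 2 and IIAEK 1). Same-numbered arrays also shared a slide, and on slide 2 a pairing by number cannot be told apart from slide. On slide 1 these few correlations do not settle whether arrays were paired.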

Additional observations from a re-analysis of the deposited data

Results flagged for a closer look

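For 2 of the named genes the IIAEK arrays lay on one side of all vehicle arrays in wild type and on the opposite side in the Akp3-/- mice. Bnip5 was at 1.38 in wild type and -0.57 in the knockout, where its levels were -0.26, -0.04 and -0.03 under vehicle and -0.67, -0.32 and -1.05 under IIAEK. The difference between genotypes was 1.95 (SE 0.42, unadjusted p = 6.32e-04, limma adjusted p = 1). Glycam1 was at -1.78 in wild type and 0.30 in the knockout, where its levels were -2.71, -2.78 and -2.47 under vehicle and -2.43, -2.39 and -2.24 under IIAEK. The difference was -2.08 (SE 0.62, unadjusted p = 0.00619, limma adjusted p = 1), and the wild-type vehicle arrays 1 and 2 were the only arrays of the 12 with a level of this venule gene near or above 0. Of the 1458 features that lay above in wild type, 34 lay below in the knockout, where 2.7% of all features lay below. Of the 964 that lay below in wild type, 13 lay above in the knockout, where 1.98% of all features lay above. Neither opposite pattern was thus more frequent than among all features. Neither the Bnip5 nor the Glycam1 difference passed the adjustment over all features.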

How the results depend on the processing

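Over 22 other settings the count of features called in wild type stayed at 0 except for 257 within slide 1 and for the fits that left out 1 array, which ranged from 0 to 17 and reached 17 without vehicle 3. The count for the difference between genotypes was 0 except for 35 within slide 2, where only the knockout vehicle group had 2 arrays, 2 with array weights, and 0 to 1 when 1 array was left out (1 without vehicle 3). Within slide 2 the lone arrays of the other groups are assumed to vary like that pair. The cause of these changes was not tested. The replicate block gave 0 called features in both comparisons and changed no call. At an unadjusted p under 0.05 the higher features numbered 175 without IIAEK 2 and 2286 with array weights. Of 722 values of 33 named genes, 18 changed sign, in Akp3, Alpi, Alppl2, Abca1 and Slc15a1, and 6 passed the threshold: Cxcl13 and Glycam1 within slide 1 and without vehicle 3, and Ccl21a and Gm1987 within slide 1. Of 1100 list medians, 184 moved by more than the spread between replicates. The median changed sign in at least 1 setting for 40 of the 50 lists. The fit with the B-cell list mean was added after seeing the data. Alox15, Slc25a48 and Slc15a2 were near background, which limits their size.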

Other observations

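Genes of ribosome biogenesis, the making of ribosomal subunits in the nucleolus, lay lower under IIAEK. This list was added after the data were seen, so its counts are a description. Of 35 genes tested, 32 were below 0 and 13 had every IIAEK array below every vehicle array, where 3.69% of all features do. The median was -0.33, with -0.34 within slide 1 and -0.25 within slide 2, and -0.10 in the knockout. It was -0.21 without IIAEK 2 and -0.19 with the means of the stomach and pancreas lists in the model. Noc3l (-0.57), Nop56 (-0.43), Gnl3 (-0.41) and Wdr75 (-0.36) encode nucleolar proteins of subunit assembly.

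Single genes of other lists also had groups that did not overlap or came close to it. Over all features, 5.58% lay above all vehicle arrays and 3.69% below. Of 22 enteroendocrine and 11 nucleotide genes, 1 each lay above. Of 18 clock genes, 1 lay above and 1 below, and of 18 endotoxin and inflammation genes, 2 lay below. The genes named here were picked from many lists and are no result about those functions. Nkx2-2, an enteroendocrine transcription factor gene, was at 1.06 and was well above background on 1 vehicle array and on all 3 IIAEK arrays, in a list of which 17 of 22 genes were below 0 (median -0.12). The clock gene Per2 was at -0.99, with 0.26, 0.52 and 2.22 on the vehicle arrays, and the clock output gene Dbp was likewise high on vehicle 3, at 4.25 against 0.03 and 0.46 on vehicle 1 and 2. The endotoxin signalling genes Irak3 and Cd14 were at -0.84 and -0.62. Entpd5, a nucleotidase gene, was at 0.42, and Slc46a1, the folate transporter gene, at 0.26. None passed the adjustment by limma.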
